A study of Homo sapiens with 19 samples.

Results

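The microRNAs (miRNAs) of a medium-speed pellet were compared with those of the whole extracellular RNA (exRNA) of the same kind of culture medium. The medium came from Caco-2, an established human colorectal epithelial cell line. All 4 libraries labelled as the pellet of a 40000 xg spin (P40) and all 4 libraries labelled as total exRNA were taken by their labels, which makes 8 of the 19 libraries of the series. The other 11 libraries are cell lysate, a 100000 xg pellet (P100) and the supernatant of that spin (S100), and S100 replicate 1 was left out for its low depth. The others entered the estimate of the spread and the choice of miRNAs abundant enough to test, and their levels are given beside some results.

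Both groups were wild type and shared their culture. Cells were grown in medium with 20% fetal bovine serum, and at 80% confluence the medium was replaced for 24 h by one free of serum and antibiotics. The harvested medium was first cleared of debris. For total exRNA, nucleic acid was precipitated from part of the cleared medium and then extracted with Trizol. For P40, the spun pellet was dissolved in Trizol with no precipitation step. Fraction and RNA preparation therefore changed together, and their effects cannot be told apart. The labels give each replicate a batch number equal to its replicate number and do not say whether replicates were separate cultures. The p-values thus rest on the variation among these libraries, which may be technical.

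miRNAs are short RNAs that Argonaute proteins use to find and repress messenger RNAs, mainly through the seed, which is bases 2 to 8 of the mature miRNA. Outside cells they are found in membrane vesicles, in free complexes with Argonaute and in lipoprotein particles. Pellets of a medium-speed spin are enriched in larger vesicles and aggregates, while total exRNA should hold all carriers. Some miRNA entries share their sequence with pieces of other abundant RNAs, such as transfer RNA (tRNA), ribosomal RNA (rRNA), small nuclear RNA or small nucleolar RNA (snoRNA), so counts under such names can come from either source.

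The sequences below belong to 12 called miRNAs and to miR-4485-3p, which was not called and is shown for its match to another RNA. They are mature sequences from RefSeq (GRCh38.p14), 5′ to 3′, with the seed in capitals. The first 4 are found whole in another short RNA of the GENCODE annotation. The next 5 were lower in P40 and are on the list of names overlapping other RNA classes or have at least 80% G and C. The last 4 are classical miRNAs, 2 of which share a seed.
miR-12136: gAAAAAGUcauggaggcc
miR-1246: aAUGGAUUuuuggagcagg
miR-3651: cAUAGCCCggucgcugguacauga
miR-4485-3p: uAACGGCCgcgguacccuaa
miR-5100: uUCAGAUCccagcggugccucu
miR-4454: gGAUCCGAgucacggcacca
miR-663b: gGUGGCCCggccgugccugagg
miR-10396a-5p: gGCGGGGCucggagccggg
miR-3196: cGGGGCGGcaggggccuc
miR-375-3p: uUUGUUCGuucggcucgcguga
miR-21-5p: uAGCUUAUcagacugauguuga
miR-141-3p: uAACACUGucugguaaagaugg
miR-200a-3p: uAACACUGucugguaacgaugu

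P40 libraries held 10490 to 26096 miRNA counts and 289 to 349 detected miRNAs, and total exRNA libraries held 34427 to 61622 counts and 384 to 438 miRNAs. A floor of 3 counts corresponded to 115 to 286 CPM (the count a library would have at a fixed total) in P40. In total exRNA it was at most 87.1 CPM. These floors are before the scaling used for the levels below. After scaling, 3 counts were 188.1 CPM in P40 replicate 1 and 237.2 CPM in P40 replicate 4. Epithelial markers were present as the cell line's label implies: all 8 miRNAs of that list were tested in both groups, and together they held 3.66% to 4.27% of counts in P40 and 4.45% to 5.40% in total exRNA. 

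The libraries did not sort by fraction alone. P40 replicates 3 and 4 had Spearman correlations of 0.851 to 0.868 with total exRNA replicate 2 over the 227 tested miRNAs, above their mean of 0.788 with P40 replicates 1 and 2. P40 replicates 1 and 2 in turn had a mean of 0.854 with total exRNA replicates 1, 3 and 4. Total exRNA replicates 1, 3 and 4 had a mean of 0.945 among themselves and of 0.837 with replicate 2. These 3 libraries, P40 replicates 3 and 4 and total exRNA replicate 2, are called set apart below. Many differences are also given without them or within each set. The split crosses the batch numbers, and no label names it. The deposited file of P40 replicate 3, alone of all, carries an added human miRNA tag in its name, and the other 2 set-apart libraries do not. Its part in the results was not tested beyond these values.

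**Figure D1:**
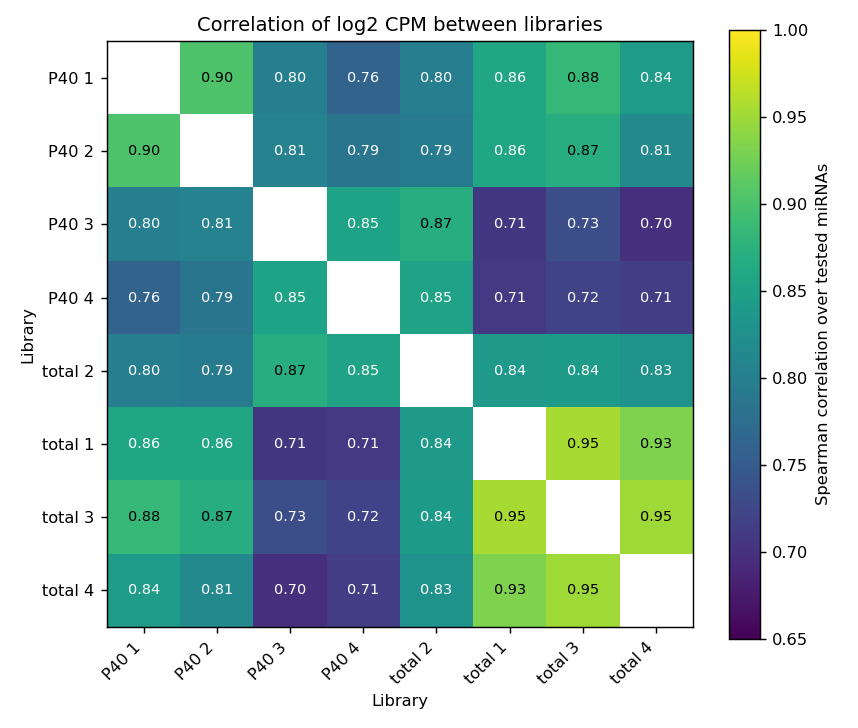
Spearman correlation of log2 CPM over 227 miRNAs between each pair of the 8 libraries, as a colour scale with the value in each cell. P40 replicates 3 and 4 were closer to total exRNA replicate 2 (0.851 to 0.868) than to total exRNA replicates 1, 3 and 4 (0.698 to 0.734).

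Of 227 miRNAs tested, 27 (11.9%) differed between P40 and total exRNA in edgeR's quasi-likelihood test at a Benjamini-Hochberg adjusted p below 0.05. Of these, 13 (5.73%) were higher and 14 (6.17%) lower in P40. Leaving out 1 library gave 7 to 25 higher calls (25 without total exRNA replicate 2, 7 without total exRNA replicate 3 or 4, 8 without total exRNA replicate 1 or P40 replicate 3 or 4) and 9 to 17 lower ones (9 without P40 replicate 4). Values are shares of the miRNA counts of a library, scaled with edgeR's TMM factors, which take most miRNAs as alike between libraries. They give no amount of RNA, and more vesicles cannot be told apart from more RNA per vesicle. The split of higher against lower calls moved with the scaling, to 10 and 17 with DESeq2's size factors and to 15 and 12 with library size alone. The median log2 fold change over all tested miRNAs was 0.11. With DESeq2's size factors the log2 fold change of a miRNA moved by a median of -0.11.

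The called miRNAs were a small part of each library. The 13 higher ones made up a mean of 5.97% of counts in P40 and 2.27% in total exRNA, and the 14 lower ones 4.51% and 11.8%. Every called log2 fold change (P40 minus total exRNA) was at least 1.04 in size, up to 3.21 among higher miRNAs and down to -4.39 among lower ones. Of all tested miRNAs, 34 (15.0%) had no overlap in CPM between the 4 P40 and the 4 total exRNA libraries, and 19 of the 27 called ones were among them. At an unadjusted p below 0.05 there were 57 miRNAs, 28 higher and 29 lower.

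**Figure D2:**
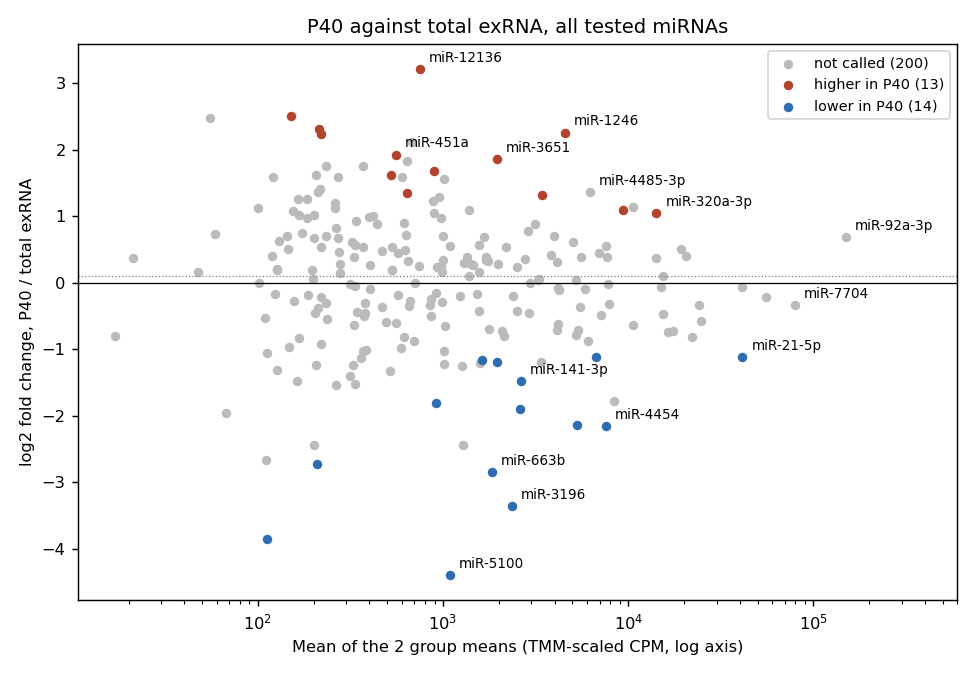
Log2 fold change of P40 over total exRNA for each of 227 tested miRNAs (vertical axis) against the mean CPM of both groups (horizontal log axis), with the 13 higher and 14 lower calls coloured. Called differences were at least 1.04 in size, and the median of all points was 0.11.

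The largest rise, and 2 others, were of miRNA names whose sequence is part of another short RNA. miR-12136, whose 18 bases occur whole in the mitochondrial serine tRNA MT-TS1, rose by a log2 fold change of 3.21 ± 0.57 (SE). miR-1246, found whole in 19 small nuclear RNA transcripts including the U2 gene RNU2-1 and often reported in tumour cell vesicles, rose by 2.25 ± 0.38. miR-3651, which is part of the snoRNA SNORA84, rose by 1.86 ± 0.34. All 3 were called in every alternative analysis in which they were tested, including the one without the set-apart libraries.

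miR-12136 was at 376.1, 967.4, 2351 and 1740 CPM in P40 replicates 1 to 4 and at 52.17, 310.7, 129 and 55.54 CPM in total exRNA replicates 1 to 4. Every P40 library lay above every total exRNA library, with the highest P40 levels in replicates 3 and 4 (edgeR's adjusted p = 0.000958). Its hairpin is at chr1:632615-632685 (GRCh38, minus strand), where it overlaps the mitochondrial pseudogene MTCO1P12 in an intron of AL669831.3. Within the set-apart libraries the difference in mean log2 CPM was 2.59, and among the remaining 5 it was 2.62. Its mean level was 3910 ± 1294 CPM in P100 (SD, n = 4) and 71.95 ± 19.55 CPM in S100 (n = 3).

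miR-1246 was at 3761, 9459, 10651 and 6326 CPM in P40 and at 1382, 1435, 1807 and 1722 CPM in total exRNA. The groups did not overlap, and total exRNA was tight while P40 spread widely (7549 ± 3115 against 1586 ± 209 CPM, SD, n = 4 each; edgeR's adjusted p = 0.000899). Its hairpin lies at chr2:176600980-176601052 (GRCh38, minus strand) in no annotated host gene. The difference in mean log2 CPM was 1.86 among the 5 libraries that are not set apart and 2.49 within the set-apart ones. Its mean was 3649 ± 939.7 CPM in P100 (SD, n = 4) and 4890 ± 1453 CPM in S100 (n = 3), so total exRNA lay below P40, P100 and S100. The same held for the called rises of miR-375-3p, miR-483-5p, miR-483-3p, miR-320a-3p, miR-320b, miR-100-5p, miR-7-5p and miR-1180-3p. For miR-12136, miR-3651, miR-194-3p and miR-451a, S100 lay below total exRNA. The cause was not tested.

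miR-3651 was at 4451, 3708, 2455 and 1581 CPM in P40 and at 1148, 665.9, 995.4 and 555.4 CPM in total exRNA. P40 was above total exRNA throughout, and the set-apart P40 replicates 3 and 4 were the lowest of P40 (edgeR's adjusted p = 0.000958). Among the 5 libraries that are not set apart the difference in mean log2 CPM was 2.20, and within the set-apart ones 1.52. The hairpin, chr9:92292458-92292547 (GRCh38, minus strand), sits in an intron of IARS, the isoleucine-tRNA synthetase gene, together with SNORA84. miR-4485-3p, whose 20 bases are part of the mitochondrial large rRNA MT-RNR2, was at 11283, 12953, 7504 and 3953 CPM in P40 and at 5817, 1539, 4092 and 2471 CPM in total exRNA. These groups overlapped and the difference, 1.36 ± 0.51, was not called (edgeR's adjusted p = 0.0865).

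Within the RNA classes searched, an exact match to another short RNA was rare among tested miRNAs. Mature sequences were found for 199 of the 227, and 4 of them occur whole, in sense, in an annotated rRNA, mitochondrial tRNA, small nuclear RNA, snoRNA or similar transcript. These are the 4 above: 3 of the 9 higher miRNAs with a sequence, 0 of the 14 lower ones and 1 of the 176 not called. A match is a description and does not say where the counted reads came from. Cytosolic tRNAs and the 45S rRNA precursor were not searched, so the 0 among lower miRNAs does not cover these classes. The bases of miR-10396a-5p, which was lower, lie whole within miR-10396b-5p, whose hairpin overlaps the rRNA precursor gene RNA45SN1.

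**Figure D3:**
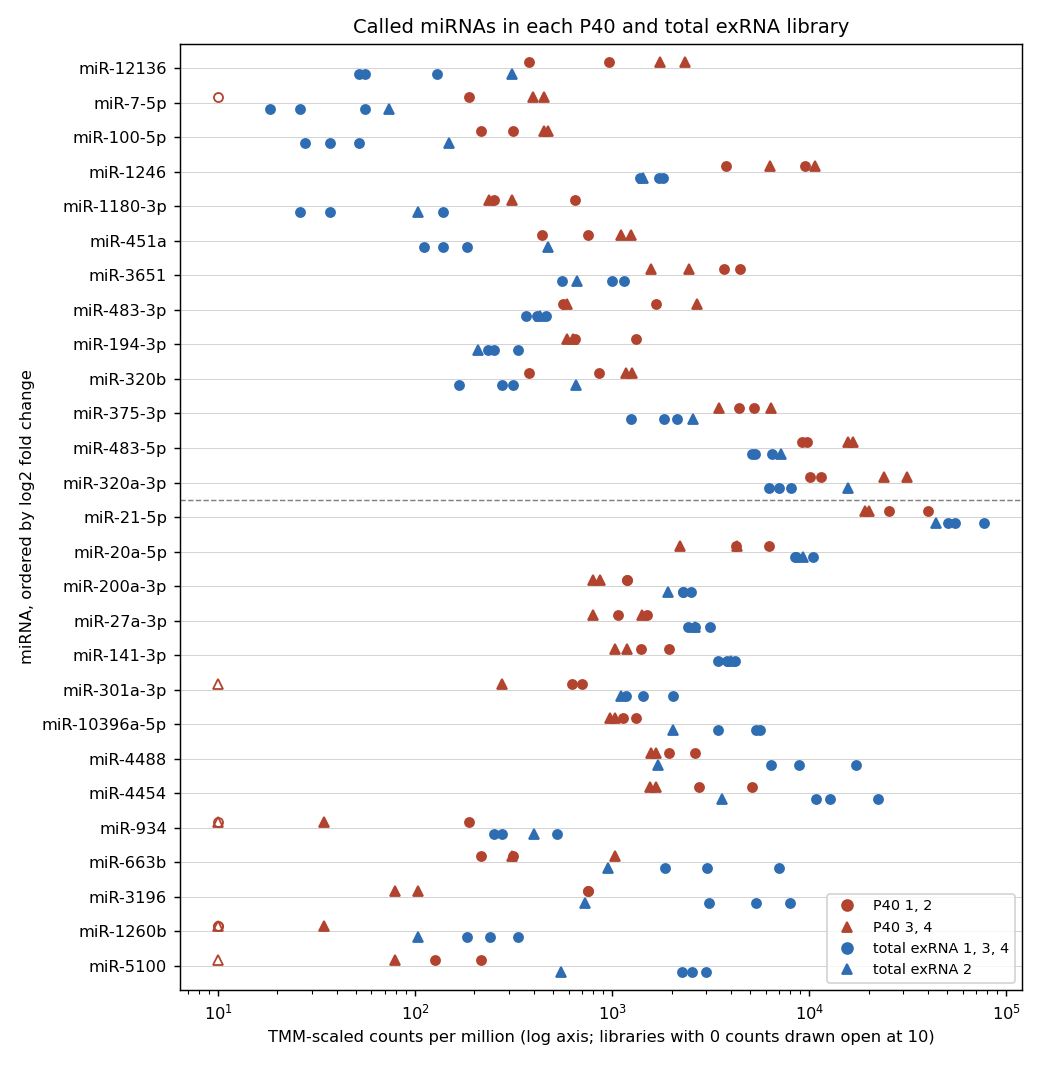
TMM-scaled CPM on a log axis of each of the 27 called miRNAs in each of the 8 libraries, with higher miRNAs above the dashed line and lower ones below it. Triangles are the set-apart libraries, circles the other 5, and open symbols at the left edge are libraries with 0 counts. miR-12136, miR-1246 and miR-3651 show no overlap between the groups, while 8 of the 27 overlap.

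Epithelial and hormone-cell miRNAs were also among the rises. miR-375-3p, which is typical of enteroendocrine and islet cells, was at 4388, 5267, 6363 and 3479 CPM in P40 and at 1826, 2575, 2138 and 1250 CPM in total exRNA. Each P40 library exceeded each total exRNA library, and the rise was 1.32 ± 0.30 (edgeR's adjusted p = 0.00588). miR-194-3p, the 3′ arm of a hairpin expressed in gut epithelium and liver, was at 1316, 645, 587.9 and 632.5 CPM against 234.8, 207.2, 331.8 and 249.9 CPM. P40 replicate 1 was the highest by far, yet the other 3 were also above all total exRNA libraries (1.62 ± 0.40, edgeR's adjusted p = 0.0103). Both calls held when any 1 library was left out and without the set-apart libraries. Among the 5 libraries that are not set apart the differences in mean log2 CPM were 1.49 for miR-375-3p and 1.67 for miR-194-3p. Within the set-apart ones they were 0.86 and 1.43.

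Both arms of miR-483, whose hairpin lies in the fetal growth factor gene IGF2, were higher in P40. The 5′ arm was at 9215, 9674, 16668 and 15656 CPM in P40 and at 5321, 7192, 5106 and 6470 CPM in total exRNA, with no overlap and the set-apart P40 libraries highest. It rose by 1.09 ± 0.27, and by 0.84 with the call lost without P40 replicate 3. The 3′ arm rose by 1.68 ± 0.54 with no overlap (lowest P40 library 564.2 CPM, highest total exRNA library 460.8 CPM). That call was lost without P40 replicate 2 (1.54) or 4 (1.11) and without total exRNA replicate 1 (1.64), 3 (1.73) or 4 (1.56).

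miRNAs often reported in vesicles or carried by red blood cells rose less evenly. miR-320a-3p, made without the usual Drosha step, was at 10092, 11448, 23826 and 31153 CPM in P40 and at 6260, 15685, 7042 and 8108 CPM in total exRNA. The set-apart libraries were the high ones in both groups, and the groups overlapped. The rise of 1.04 ± 0.33 (edgeR's adjusted p = 0.0404) was 0.60 and not called without the set-apart libraries. Leaving out P40 replicate 3 (0.79) or 4 (0.68), or total exRNA replicate 1 (0.91), 3 (0.93) or 4 (0.90), also ended the call.

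The related miR-320b rose by 1.35 ± 0.43 with overlapping groups and was not called without P40 replicate 2 (1.37), 3 (1.06) or 4 (1.14) or total exRNA replicate 1 (1.31), 3 (1.24) or 4 (1.06). Reads may have been exchanged within the miR-320 family, whose members are nearly identical. miR-451a, the most abundant miRNA of red blood cells, was at 438.8, 752.4, 1245 and 1107 CPM in P40 against 182.6, 473.5, 110.6 and 138.8 CPM in total exRNA, and it had 0 counts in all 3 lysate libraries. Its groups overlapped through total exRNA replicate 2, and the rise of 1.93 ± 0.57 was not called without P40 replicate 3 (1.58) or 4 (1.78) or total exRNA replicate 1 (1.84), 3 (1.69) or 4 (1.71).

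The remaining 3 rises rested on few counts, and none of these miRNAs passed the low-count filter when only P40 and total exRNA were fitted. miR-7-5p, a regulator of growth factor signalling, had 3, 0, 13 and 5 counts in P40 and 1, 5, 1 and 2 in total exRNA, so the 2.50 ± 0.78 rise comes from overlapping groups. Its difference in mean log2 CPM was 0.40 among the 5 libraries that are not set apart and 2.12 within the set-apart ones. It was not called without P40 replicate 3 (1.86) or 4 (2.30) or total exRNA replicate 1 (2.36), 3 (2.23) or 4 (2.53). miR-100-5p, of the miR-99/100 family that targets mTOR, was at 215 to 474.4 CPM in P40 and 27.77 to 148 CPM in total exRNA, without overlap (2.31 ± 0.63). Its call was lost without P40 replicate 3 (2.06) or 4 (2.16) or total exRNA replicate 3 (2.09) or 4 (2.04). Reads may have been exchanged with near-identical miR-99a-5p, which was not called (0.39). miR-1180-3p, from an intron of B9D1, had 28 counts in P40 and 15 in total exRNA, as did miR-100-5p. It was at 237.2 to 645 CPM against 26.08 to 138.8 CPM (2.24 ± 0.58) and lost its call without P40 replicate 2 (1.80). For miR-1180-3p the difference in mean log2 CPM was 2.34 among the 5 libraries that are not set apart and 1.18 within the set-apart ones.

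Many of the falls were of names listed as overlapping other RNA classes (5 miRNAs) or of sequences with at least 80% G and C (4 miRNAs, 2 of them also on that list). miR-5100, at chr10:42997563-42997681 (GRCh38) with no host gene, had 2, 4, 0 and 1 counts in P40 and 114, 37, 138 and 81 in total exRNA, and 0 in every lysate library. Every P40 library was below every total exRNA library (log2 fold change -4.39 ± 0.79, edgeR's adjusted p = 0.000958). Closest were P40 replicate 2, with 0.0210% of counts, and total exRNA replicate 2, the lowest of its group, with 0.0600%. The P40 counts lie around the floor of 3 counts, so the size of the fall is uncertain. The difference was -3.74 among the 5 libraries that are not set apart and -3.33 within the set-apart ones. miR-1260b had 1 count over the 4 P40 libraries and 39 over the 4 total exRNA libraries. The ratio of shares was 0.0672, with an exact 95% interval of 0.00166 to 0.397 that covers counting error only. It did not pass the low-count filter when only P40 and total exRNA were fitted.

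miR-4454 was at 2758, 5106, 1556 and 1660 CPM in P40 and at 22328, 3596, 12793 and 10830 CPM in total exRNA. Total exRNA replicate 2 fell inside the P40 range, so the groups overlapped, and the other 3 libraries were above all of P40. The fall of 2.16 on the log2 scale (SE 0.52, edgeR's adjusted p = 0.0101) was called when any 1 library was left out. The difference was -1.95 among the 5 libraries that are not set apart and -1.15 within the set-apart ones. Its mean in cell lysate, 24599 ± 10893 CPM (SD, n = 3), was of the size of the highest total exRNA library, whereas P100 held 2019 ± 536 CPM (n = 4).

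miR-663b was at 313.4, 215, 311.2 and 1028 CPM in P40 and at 1852, 947, 3042 and 6998 CPM in total exRNA, and at 0 in every lysate library. P40 replicate 4 just passed total exRNA replicate 2, the lowest of its group, and otherwise P40 was lower (-2.85 ± 0.62, edgeR's adjusted p = 0.00579). The hairpin lies in an intron of ANKRD30BL at chr2:132256966-132257080 (GRCh38, minus strand). This call held in every alternative in which it was tested, but the difference in mean log2 CPM was -3.57 among the 5 libraries that are not set apart and -0.70 within the set-apart ones. miR-663a, whose seed differs from that of miR-663b, was at 7209, 2687, 2974 and 2293 CPM against 5138, 1228, 8701 and 36710 CPM, which overlap widely (-1.77, edgeR's adjusted p = 0.0982).

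miR-10396a-5p, with 89.5% G and C, was at 1316, 1129, 968.3 and 1028 CPM in P40 and at 3443, 2027, 5641 and 5387 CPM in total exRNA. All P40 libraries were lower and varied little (-1.89 ± 0.36, edgeR's adjusted p = 0.00119), and the call held when any 1 library or all set-apart libraries were left out. The difference was -1.92 among the 5 other libraries and -1.001 within the set-apart ones. Its hairpin is at chr21:8987617-8987665 (GRCh38), and that of its near copy miR-10396b lies within the rRNA precursor gene RNA45SN1. All bases of miR-10396a-5p lie within miR-10396b-5p, so reads may have been exchanged. miR-10396b-5p was not called (-0.78) and averaged 0.421% of counts in P40 and 0.704% in total exRNA. miR-3196, from an intron of BIRC7 on chromosome 20 and 88.9% G and C, was at 752.2, 752.4, 103.7 and 79.07 CPM against 3104, 725.1, 5364 and 7997 CPM. The set-apart libraries were the lowest of both groups, which made the groups overlap (-3.36 ± 0.75, edgeR's adjusted p = 0.00663). Those of P40 were at or under the floor of 3 counts.

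miR-4488, also 88.9% G and C, was at 2633, 1935, 1660 and 1581 CPM in P40 and at 6417, 1702, 8904 and 17300 CPM in total exRNA. Total exRNA replicate 2 was as low as P40: the difference was -2.13 among the 5 libraries that are not set apart and -0.07 within the set-apart ones. Its call (log2 fold change -2.13 ± 0.62) was lost without P40 replicate 2 (-2.15), 3 (-2.09) or 4 (-2.01) or total exRNA replicate 3 (-2.12) or 4 (-1.63). Among the 199 tested sequences, 15 had a G and C content of at least 80%, of which 0 were higher and 4 lower, with a median log2 fold change of -0.98, beside 5.73% higher and 6.17% lower among all tested miRNAs. Of the 32 from 60% to under 80%, 1 was higher and 1 lower (median 0.54). Of the 96 from 45% to under 60%, 6 were higher and 4 lower (0.27), and of the 56 below 45%, 2 were higher and 5 lower (-0.03).

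The other falls include miR-21-5p and a pair of epithelial miRNAs. miR-21-5p, an anti-apoptotic miRNA that is abundant in carcinoma cells and lies in VMP1 at chr17:59841266-59841337 (GRCh38), was at 40056, 25261, 20126 and 19214 CPM in P40 and at 50498, 43949, 54730 and 77057 CPM in total exRNA. Every P40 library was lower, with replicate 1 closest to total exRNA. It made up 2.86% ± 1.05 of counts in P40 and 5.99% ± 1.48 in total exRNA (SD, n = 4 each), a change of -1.11 ± 0.32 (edgeR's adjusted p = 0.0224). The call was lost without P40 replicate 3 (-1.05) or 4 (-0.97), without total exRNA replicate 4 (-0.99) and without the set-apart libraries (-0.87), with the sign kept.

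miR-141-3p and miR-200a-3p, epithelial miRNAs that repress the ZEB transcription factors, share the seed AACACUG and both fell. miR-141-3p was at 1943, 1397, 1037 and 1186 CPM in P40 and at 4173, 3995, 3429 and 3804 CPM in total exRNA. The groups were far apart and total exRNA was tight (-1.47 ± 0.36, edgeR's adjusted p = 0.0101). miR-200a-3p was at 1191, 1182, 795.4 and 869.8 CPM against 2295, 1924, 2507 and 2277 CPM, again without overlap (-1.16 ± 0.37, edgeR's adjusted p = 0.0428). The latter call was lost without P40 replicate 2 (-1.26), 3 (-1.12) or 4 (-1.11) or total exRNA replicate 1 (-1.13), 3 (-1.11) or 4 (-1.23), and without the set-apart libraries neither was called (-1.16 for miR-141-3p and -0.98 for miR-200a-3p).

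miR-27a-3p, a regulator of fat and cholesterol genes, was at 795.4 to 1505 CPM in P40 and 2426 to 3115 CPM in total exRNA, with no overlap (-1.19 ± 0.31). Reads may have been exchanged with near-identical miR-27b-3p, which was not called (-0.61). miR-301a-3p, from an intron of SKA2, was at 626.9, 698.7, 276.6 and 0 CPM against 1110 to 2027 CPM (-1.81 ± 0.49), and it may have exchanged reads with miR-301b-3p. Both calls held when any 1 library was left out but not without the set-apart libraries (-1.08 and -1.21).

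miR-20a-5p of the growth-promoting miR-17/92 cluster was at 2213 to 6206 CPM against 8442 to 10407 CPM, without overlap (-1.12 ± 0.37, edgeR's adjusted p = 0.0488). Its call was lost in 7 of the 8 analyses that left out 1 library, all but the one without P40 replicate 1, with values from -0.96 to -1.37 over all 8. Reads of miR-20a-5p may have been exchanged with near-identical miR-17-5p (-0.87) and miR-106a-5p (0.71), which were not called. miR-934, in an intron of VGLL1 on the X chromosome, had a log2 fold change of -2.72 ± 0.77. miR-934 had 3, 0, 1 and 0 counts in P40 and 20, 27, 15 and 9 in total exRNA. It too did not pass the low-count filter in the fit of only these groups. That call was lost without P40 replicate 2 (-2.33), 3 (-2.53) or 4 (-2.43) or total exRNA replicate 1 (-2.49).

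**Figure D4:**
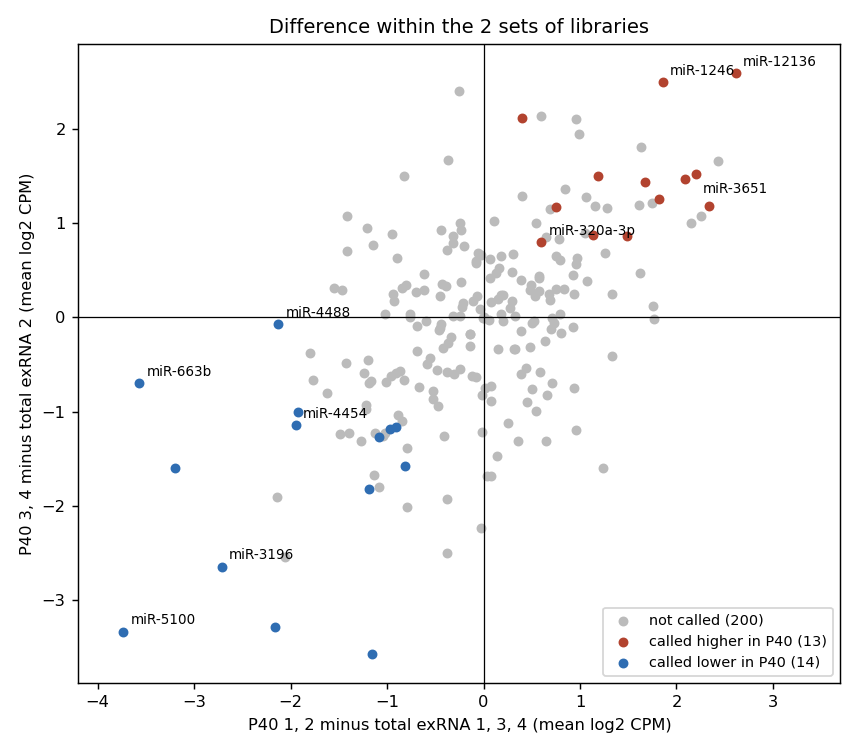
Difference in mean log2 CPM (P40 minus total exRNA) of each tested miRNA among the 5 libraries that are not set apart (horizontal axis) and within the 3 set-apart libraries (vertical axis), with called miRNAs coloured. All 27 called miRNAs have the same sign on both axes, and miR-4488 lies near 0 on the vertical axis (-0.07).

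All 27 called miRNAs had the same sign in both sets of libraries, as did 147 (64.8%) of all 227. The called ones were chosen for a large difference, so this count describes them. In 22 of the 27 the sign was also the same in each of the 4 batch numbers, against 60 (26.4%) of all tested miRNAs. Without the set-apart libraries 9 miRNAs were higher and 6 lower, and 12 of the 27 calls were kept: miR-12136, miR-1246, miR-1180-3p, miR-3651, miR-194-3p and miR-375-3p among the higher ones, and miR-10396a-5p, miR-4454, miR-663b, miR-3196, miR-1260b and miR-5100 among the lower ones. The calls lost without the set-apart libraries included miR-483-5p (0.76), miR-483-3p (1.42), miR-320b (1.29), miR-451a (2.08), miR-100-5p (2.71), miR-20a-5p (-0.78) and miR-934 (-1.93). With the batch number as a block in the fit, 10 were higher and 12 lower, and 19 of the 27 calls were kept. Those lost were miR-7-5p, miR-451a, miR-483-3p, miR-320a-3p, miR-320b, miR-20a-5p, miR-200a-3p and miR-4488.

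Among each group's 10 most abundant miRNAs, miR-21-5p (in both groups) and miR-320a-3p (in P40) were called. The abundant miRNAs described next did not pass the test. miR-92a-3p, of the miR-17/92 cluster, made up 19.9% ± 4.72 of counts in P40 and 12.2% ± 2.09 in total exRNA (SD, n = 4 each; 0.68 ± 0.25, edgeR's adjusted p = 0.0795). Its difference in mean log2 CPM was 0.92 among the 5 libraries that are not set apart and 0.45 within the set-apart ones. miR-7704 was at 95532, 112437, 37070 and 35818 CPM in P40 and at 149067, 37245, 106972 and 61840 CPM in total exRNA. Its low libraries included the set-apart ones of both groups, and the groups overlapped (-0.34 ± 0.44, edgeR's adjusted p = 0.641). miR-372-3p, an embryonic stem cell miRNA, was at 23695, 37891, 50038 and 50604 CPM against 28457, 83399, 27116 and 29990 CPM, with the set-apart libraries high in both groups (-0.06, edgeR's adjusted p = 0.911). Its sign changed to 0.57 without total exRNA replicate 2.

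miRNAs with the same seed can act on the same messenger RNAs. The seed AUUGCAC (miR-25-3p, miR-92a-3p and miR-92b-3p) held 24.29%, 27.77%, 22.98% and 15.47% of counts in P40 and 16.05%, 13.41%, 15.82% and 11.36% in total exRNA. P40 replicate 4 fell inside the total exRNA range and the other 3 were above it. None of its 3 members was called, and their log2 fold changes were 0.40 to 0.68. For AACACUG (miR-141-3p and miR-200a-3p) the share was 0.263% ± 0.0606 in P40 and 0.646% ± 0.0079 in total exRNA (SD, n = 4 each).

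The neighbouring seed AAUACUG (miR-200b-3p, miR-200c-3p and miR-429), which differs from AACACUG by a single base, held 2.57% ± 0.136 and 3.14% ± 0.269 of counts. None of its members was called, with log2 fold changes from -0.43 to -0.15. miR-141 and miR-200c both lie in MIR200CHG, with hairpins at chr12:6964097-6964191 and chr12:6963699-6963766 (GRCh38). The difference between these miRNAs in response was not tested.

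Seed groups hold only the 199 tested miRNAs with a mature sequence, and within that limit the other groups had at most 1 call each. miR-320a-3p, which was called higher, and miR-130a-3p had no sequence here. They could not be placed by seed, so the calls of a group may be incomplete. Among those placed, miR-320b was the 1 higher member of AAAGCUG (miR-320b, miR-320c and miR-320d), whose log2 fold changes were 1.08 to 1.36. Likewise, miR-100-5p was the 1 higher member of ACCCGUA (0.39 to 2.31). miR-20a-5p was the 1 lower member of the 5 with AAAGUGC, of which 4 had negative values (median -0.58), and miR-301a-3p that of the 4 with AGUGCAA (median -0.54). The let-7 seed GAGGUAG had 9 tested members, 0 called, and a median of 0.25. The signs of the members of the 3 seed groups above and of the groups of miR-320b and miR-100-5p were the same with DESeq2's size factors and with library size alone.

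**Figure D5:**
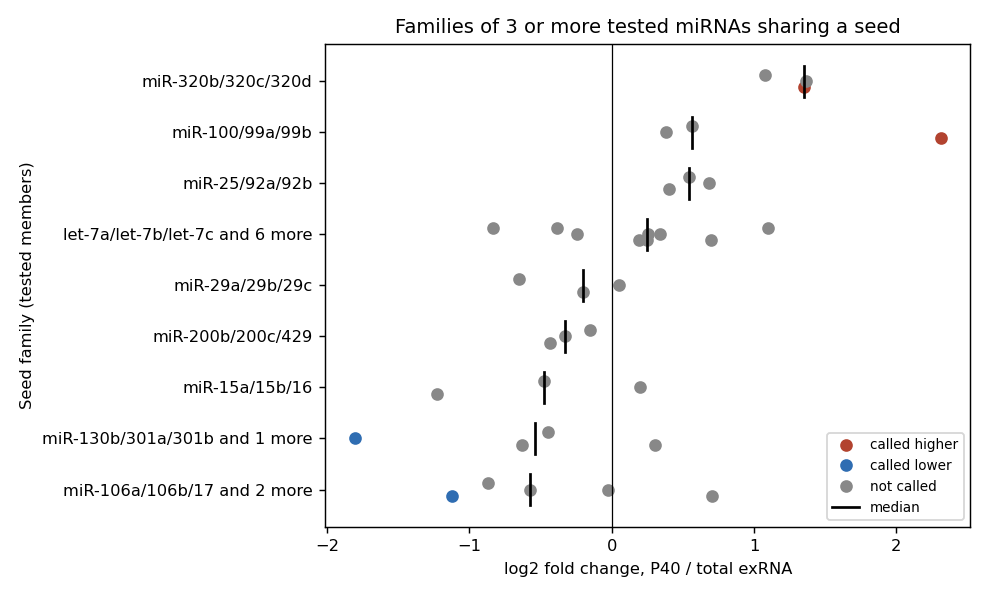
Log2 fold change of P40 over total exRNA (horizontal axis) in seed groups with at least 3 tested members that have a mature sequence (rows). Each point is such a miRNA, coloured by call, with the group median as a black bar. All members of the miR-320b and miR-25 groups lie above 0 and all of the miR-200b group below it, and 4 points are called.

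By function, the list of vesicle-associated miRNAs had 4 of 9 tested members higher (miR-1246, miR-320a-3p, miR-320b and miR-451a) and 1 lower (miR-21-5p), with a median of 1.08 beside 0.11 for all tested. Without the set-apart libraries the median was 0.63, and of these calls only that of miR-1246 was kept. The list's share of counts overlapped between the groups, at 5.28% to 8.99% in P40 and 6.46% to 9.91% in total exRNA. Over all tested miRNAs 5.73% were higher and 6.17% lower, and lists below with 1 call in 11 or more members are near these shares. The list of names overlapping other RNA classes or repeats had 3 of 16 higher (miR-12136, miR-1246 and miR-3651) and 5 lower (miR-663b, miR-10396a-5p, miR-4454, miR-5100 and miR-1260b), with a median of -1.32. Its share of counts was 3.01% to 4.27% in P40 and 1.94% to 8.40% in total exRNA, where replicate 2 had the lowest share. miR-1246 is on both lists.

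Intestinal epithelial miRNAs went both ways, with 2 of 13 higher (miR-194-3p and miR-375-3p) and 2 lower (miR-141-3p and miR-200a-3p) and a median of -0.43. The miR-17/92 clusters had 1 of 17 lower (median 0.40, but -0.27 without the set-apart libraries). The colorectal tumour list had 1 of 11 lower (median 0.26), the miR-23, miR-24 and miR-27 list had 1 of 6 lower (-0.66) and the miR-130, miR-301 and miR-454 list had 1 of 6 lower (-0.54). The family of miR-100, miR-125, miR-99 and miR-10 had 1 of 7 higher (0.57). No member was called among 9 of let-7 and miR-98 (0.25, but -0.29 without the set-apart libraries), 5 of the embryonic clusters (-0.06), 3 of miR-15/16 (-0.48) and 5 of miR-30 (-0.46).

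Each list of markers of cells that Caco-2 cultures should not hold had a smaller share of counts than the epithelial list. Single markers were not all lower: neural miR-128-3p and red cell miR-486-5p averaged 0.156% and 0.167% in P40. There epithelial miR-200a-3p and miR-200b-3p averaged 0.110% and 0.150%. In total exRNA these 4 miRNAs averaged 0.142%, 0.134%, 0.239% and 0.189%, in the same order. The part of these markers in the results was not tested. The 4 red cell or serum markers held 0.210% to 0.319% of counts in P40 and 0.0871% to 0.232% in total exRNA, with miR-451a called and miR-144-5p at 0 counts in all 8 libraries. White blood cell markers held 0.0208% to 0.134% and 0% to 0.0130%, with miR-142-5p at 0 and no member tested. The liver miRNA miR-122-5p held 0.0498% to 0.0833% and 0.0104% to 0.0465% and was not called (0.88, edgeR's adjusted p = 0.268). Muscle markers (0.0105% to 0.0575% and 0.00871% to 0.0308%, miR-206 at 0), neural markers (0.153% to 0.257% and 0.143% to 0.232%, miR-124-3p at 0) and fibroblast markers (0.0307% to 0.0694% and 0.0487% to 0.105%, miR-145-3p and miR-199a-3p at 0) had no member called. miR-486-5p, another red cell miRNA, had counts of 8 to 39 in P40 and 25 to 81 in total exRNA.

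The balance of the 2 arms of a hairpin was compared for the 35 hairpins with both arms tested, in a test added after the data were seen. For miR-194 the log2 ratio of the 5′ to the 3′ arm was 0.80, 1.03, 0.36 and 1.54 in P40 and 3.71, 2.04, 2.87 and 3.59 in total exRNA. miR-194-5p is made from hairpins on chromosomes 1 and 11 and miR-194-3p was placed only in the one on chromosome 11, so this ratio is not that of a single hairpin. The 3′ arm thus held a larger part in every P40 library. miR-10396a (1.30 ± 0.24 against 2.62 ± 0.28) and miR-378a (-5.27 ± 0.71 against -3.57 ± 0.58, SD, n = 4 each) also had no overlap. An exact two-sided permutation test gave p = 0.0286 for each of these 3, the smallest that 4 against 4 libraries allow, and 0.333 after adjustment over the 35, so none passed.

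Broad features of the libraries were not shown to differ. The 10 most abundant miRNAs of a library held 53.8% ± 5.22 of counts in P40 and 53.0% ± 2.14 in total exRNA (SD, n = 4 each; exact two-sided permutation p = 0.8, adjusted over 3 measures 0.8). At an equal depth of 10017 counts, 279 ± 7.56 and 285 ± 3.77 miRNAs were detected (exact permutation p = 0.229, adjusted 0.686). The count-weighted G and C content of mature sequences was 54.4% ± 2.10 and 55.2% ± 3.16 (exact permutation p = 0.743, adjusted 0.8). It was lower in the set-apart libraries (52.65% and 52.45% in P40 replicates 3 and 4, 50.56% in total exRNA replicate 2) than in the other 5 (55.99% to 57.38%).

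Of the 694 miRNAs listed in either group, 402 were listed in both, 64 only in P40 (91 counts in all) and 228 only in total exRNA (580 counts), whose depth was greater. No miRNA was in all 4 P40 libraries and absent from total exRNA, and 9 were in all 4 total exRNA libraries and absent from P40. Of these, miR-642a-5p (20 counts) was at least 2.54-fold lower in P40 and miR-331-5p (19 counts) at least 2.42-fold lower, against a floor of 3 counts over the 4 P40 libraries. These 2 were named after their values were seen, and the other 7 had 6 to 11 counts.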

How the data were processed

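Small RNA of Caco-2 medium was sequenced with the RealSeq-AC kit as single reads of 50 bases, per the labels' protocols. Each library has 1 deposited file of raw counts by mature human miRNA. Per the submitters' processing notes, the authors used cutadapt 1.16, FastQC and Bowtie2 with GRCh38. Not given in the sources used here were the alignment settings, the treatment of multi-mapping reads and the miRNA release.

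An unlisted miRNA counted as 0. Libraries with under 100 detected miRNAs were left out, which kept 18 of 19. In R 4.3.3 with edgeR 4.0.16, filterByExpr (minimum count 10, minimum total 15) kept 227 of 1043 miRNAs, sizes were scaled by TMM, and a robust quasi-likelihood model was fitted to all 5 groups (common biological coefficient of variation 0.419). The contrast P40 minus total exRNA was tested by the F test, with Benjamini-Hochberg adjustment over 227 and calls at 0.05. SE is the size of the log2 fold change over the square root of F. log2 CPM used a prior count of 2. Library measures and arm ratios were tested by exact permutation (SciPy 1.17.1). The F test was also run on simulated counts of independent libraries. These lacked the split of the set-apart libraries, so they do not show how the test behaves under it.

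The batch number, which the labels give as the replicate number, pairs the libraries; correlations of the paired deviations from the group means were 0.31, -0.57, -0.30 and -0.09. Alternatives were DESeq2 1.42.0, other scalings, no low-count filter, 2 groups, the block, equal depth, near-identical names summed, and left-out libraries. There were no molecular identifiers, so intervals and floors cover counting error only.

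Named miRNAs are the 12 largest called rises and falls whose higher group averaged at least 100 CPM, each group's 10 most abundant miRNAs, and called or leading members of the lists. miR-10396a-3p, miR-10396b-5p, miR-194-5p, miR-378a, miR-92b-3p, miR-320c, miR-320d, miR-17-5p, miR-106a-5p and miR-99a-5p were named after their values were seen. The members and the 12 miRNA lists and 7 marker lists were chosen with earlier results of these data known, so their counts are descriptions.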

Additional observations from a re-analysis of the deposited data

Results flagged for a closer look

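In 94 sets of 4 libraries, 5 had 1 library far from the other 3 by Dixon's test at its 95% critical value, and chance flags about 1 in 20. miR-194-3p was at 1316 CPM in P40 replicate 1, against 587.9 to 645 CPM in the other 3. miR-663b was at 1028 CPM in P40 replicate 4, against 215 to 313.4 CPM. miR-1260b was at 34.58 CPM in P40 replicate 3, which is 1 count, and at 0 in the others. miR-663a was at 7209 CPM in P40 replicate 1, against 2293 to 2974 CPM. miR-372-3p was at 83399 CPM in total exRNA replicate 2, against 27116 to 29990 CPM in the other 3, and that library is one of those set apart.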

How the results depend on the processing

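P40 libraries are shallow, so miRNAs near the floor could not be compared. Higher and lower calls, 13 and 14 in the main analysis, numbered 3 and 14 without the low-count filter, 7 and 7 in a fit of only the P40 and total exRNA libraries (where 5 of the 27 failed the filter and were not tested), 15 and 27 with DESeq2, 11 and 9 at equal depth, 8 and 3 without P40 replicates 3 and 4, and 9 and 6 without all set-apart libraries. With the replicate block they were 10 and 12, and with the block in the fit of only these 2 groups (added after seeing the data) 3 and 1. Leaving out 1 library gave 7 to 25 higher (25 without total exRNA replicate 2, 7 without total exRNA replicate 3 or 4, 8 without total exRNA replicate 1 or P40 replicate 3 or 4) and 9 to 17 lower (9 without P40 replicate 4). The cause was not tested. No called miRNA changed sign in any alternative that tested it.

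Signs changed for values that had not passed a test. miR-7704 became 0.27 without P40 replicates 3 and 4 and 0.058 without total exRNA replicate 1 (leave-one-out range -0.68 to 0.058). miR-373-3p became 0.04 without the set-apart libraries and 0.046 without total exRNA replicate 2 (range -0.37 to 0.046). miR-372-3p became 0.011 in the fit of 2 groups, 0.022 with the replicate block, 0.14 with both, 0.064 at equal depth, 0.12 without the set-apart libraries, 0.13 without P40 replicate 1 and 0.57 without total exRNA replicate 2 (range -0.30 to 0.57). miR-10396a-3p became 0.41 at equal depth. The difference in the share of the 10 most abundant miRNAs became -0.01 without P40 replicate 1 and -1.09 without P40 replicate 2 (leave-one-out range -1.09 to 2.83 percentage points; 4.75 without the set-apart libraries), and that in miRNAs detected became 0.997 at a depth of 5000 counts.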
